A study of Homo sapiens with 8 samples.

Results

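The subunits of respiratory complexes II, III, IV and V that are encoded in the nucleus were followed in the human osteosarcoma cell line U2OS. They were found by symbol: SDHA to SDHD for complex II, UQCR genes and CYC1 for complex III, COX4 to COX8 genes for complex IV and ATP5 genes for complex V, with pseudogenes left out. This gave 50 of the 26902 entries in the deposited table, with 4 for complex II, 10 for complex III, 17 for complex IV and 19 for complex V. Of these, 3 are not subunits: ATP5S and ATP5SL, which are other mitochondrial proteins, and the readthrough transcript ATP5J2-PTCD1. The cells overexpressed QKI7, which is made from the gene of the RNA-binding protein QKI, or carried the empty vector. All cells, vector cells included, had been exposed to 0.5 mM sodium arsenite (NaAsO2) for 1 h, and no cells without arsenite were analysed here. The 4 groups, QKI7 footprint, vector footprint, QKI7 input and vector input, held 2 libraries each. Footprints are ribosome-protected fragments of 17 to 34 nt, and inputs are RNA libraries depleted of ribosomal RNA. Nothing in the labels tells separate cultures from repeat libraries of 1 culture, and p-values here rest on a spread between libraries that may be technical. The labels also do not give a clone or the promoter that drove QKI7.

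These complexes carry out the later steps of oxidative phosphorylation in the inner mitochondrial membrane. Complex II (succinate dehydrogenase) feeds electrons from the citric acid cycle to ubiquinone, complex III (cytochrome bc1) passes them on to cytochrome c, and complex IV (cytochrome c oxidase) passes them to oxygen. Complex V (ATP synthase) uses the resulting proton gradient to make ATP. All subunits of complex II and most of those of the other complexes are made on cytosolic ribosomes and imported, and the core of complexes III, IV and V also contains subunits made inside the mitochondrion, which are not members here.

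Values are TPM, the share of a transcript among all transcripts of its library after correction for length. They were deposited without counts, and the depth of the libraries is therefore unknown. Ribosomal RNA took 96.8% of the TPM in both QKI7 footprint libraries and 97.3% in both vector footprint libraries. What remained after removal of ribosomal RNA, small non-coding RNA, histone genes and spike-ins was 0.691% and 0.698% of TPM in QKI7 footprints and 0.704% and 0.707% in vector footprints. The same remainder was 4.93% and 4.62% in QKI7 inputs and 4.02% and 4.32% in vector inputs. Changes are therefore also given after rescaling this remainder to the same sum in each library, called the mRNA scale. QKI itself had 1748.86 and 1579.91 TPM in QKI7 inputs against 3.01 and 3.45 TPM in vector inputs, and 27.0 and 28.06 TPM in QKI7 footprints against 0.57 and 0.66 TPM in vector footprints. The 9 osteosarcoma and mesenchymal markers listed summed to 133.87 to 143.69 TPM in QKI7 inputs and 147.93 to 153.54 TPM in vector inputs. Most of this was VIM, with 82.96 and 74.63 TPM in QKI7 inputs and 98.61 and 102.27 TPM in vector inputs. COL1A2, ALPL and RUNX2 reached at most 0.07, 0.26 and 0.72 TPM in any library. In inputs VIM, CD44 and COL1A2 were lower in QKI7 cells, COL1A1, FN1, SPARC, TAGLN and RUNX2 were higher, and ALPL overlapped. The 5 blood markers summed to at most 0.61 TPM in any library. The epithelial markers, mostly KRT18 and KRT8, summed to 36.55 to 40.28 TPM in QKI7 inputs and 44.23 to 44.67 TPM in vector inputs. The part of these differences in the results was not tested, and in bulk RNA fewer cells with a transcript and less of it per cell cannot be told apart.

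Several ATP synthase genes stand in the table under older symbols. ATP5A1 and ATP5B are now ATP5F1A and ATP5F1B, ATP5E is ATP5F1E, ATP5F1 is ATP5PB, ATP5H is ATP5PD, ATP5J is ATP5PF and ATP5O is ATP5PO. In all, 31 members matched the RefSeq annotation of GRCh38.p14 by their symbol and 19 through an older symbol.

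The promoters of the members whose RNA was lower in QKI7 cells on both scales are shown here, because these are the genes whose RNA passed the test both as deposited and on the mRNA scale. They are UQCR10, COX6A1, COX5B and ATP5E. Each sequence is the 250 bases before the gene's start in RefSeq (GRCh38.p14), written 5′ to 3′ on the gene's strand, with capitals marking a match to a motif given after the sequences.
UQCR10: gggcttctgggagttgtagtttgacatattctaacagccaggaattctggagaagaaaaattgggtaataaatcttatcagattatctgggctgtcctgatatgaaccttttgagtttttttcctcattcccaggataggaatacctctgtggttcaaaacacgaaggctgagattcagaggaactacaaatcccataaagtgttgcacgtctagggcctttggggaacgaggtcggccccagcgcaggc
COX6A1: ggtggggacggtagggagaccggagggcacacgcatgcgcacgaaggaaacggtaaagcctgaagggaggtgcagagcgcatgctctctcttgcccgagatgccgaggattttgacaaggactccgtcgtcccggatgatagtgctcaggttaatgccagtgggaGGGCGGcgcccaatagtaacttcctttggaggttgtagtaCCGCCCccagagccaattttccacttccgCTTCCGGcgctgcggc
COX5B: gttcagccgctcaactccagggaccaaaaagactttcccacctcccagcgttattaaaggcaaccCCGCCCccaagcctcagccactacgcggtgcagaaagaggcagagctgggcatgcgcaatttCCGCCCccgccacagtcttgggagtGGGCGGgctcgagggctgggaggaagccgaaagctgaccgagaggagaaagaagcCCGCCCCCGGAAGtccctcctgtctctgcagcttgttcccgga
ATP5E: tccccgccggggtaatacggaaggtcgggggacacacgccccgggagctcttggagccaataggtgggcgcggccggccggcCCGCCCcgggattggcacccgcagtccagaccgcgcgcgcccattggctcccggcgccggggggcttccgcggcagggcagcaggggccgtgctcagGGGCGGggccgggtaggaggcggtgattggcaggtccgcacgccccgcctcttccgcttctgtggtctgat
The windows are chr22:29767119-29767368 on the plus strand for UQCR10, chr12:120437863-120438112 on the plus strand for COX6A1, chr2:97645812-97646061 on the plus strand for COX5B and chr20:59032336-59032585 on the minus strand for ATP5E. The motifs searched on both strands were GCGCA followed by any base and GCGC for NRF1, CCGGAAG for ETS factors, AANATGGC for YY1 and GGGCGG for SP1. NRF1, the ETS factor GABP and YY1 are known regulators of nuclear genes for respiratory subunits. Promoter records were available for 36 member genes, with 42 records among 35116 in all. The NRF1 motif lay in 9 of the 42 (21.4%) and in 5.07% of all records, and the ETS motif in 13 (31%) and in 8.52% of all records. The YY1 motif lay in 4 (9.52%) and in 3.86%, and the SP1 motif in 19 (45.2%) and in 42.6%. The 4 windows shown held no match to the NRF1 or YY1 motif, and that of UQCR10 held no match at all. A match is a description of the letters in these windows, not a bound site.

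Of the 50 members, 32 reached a mean of 1 TPM over the 8 libraries and were tested: 1 of complex II, 8 of complex III, 11 of complex IV and 12 of complex V. Among the 18 below it, the highest value in any library was 1.75 TPM, for ATP5L. They included SDHB, the iron-sulfur subunit of complex II, with at most 1.51 TPM, and its membrane anchors SDHC and SDHD, with at most 0.97 and 1.09 TPM. UQCRB and UQCR11 of complex III reached 1.0 and 0.63 TPM, and ATP5D and ATP5G3 of complex V 1.14 and 0.72 TPM. ATP5SL reached 1.11 TPM, ATP5S 0.99 TPM, ATP5L2 0.05 TPM and ATP5J2-PTCD1 0.04 TPM. The 6 complex IV isoforms of particular tissues, COX4I2, COX6A2, COX6B2, COX7A1, COX7B2 and COX8C, reached at most 0.6 TPM, and COX7B2 was listed at 0 in every library.

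Footprints fell in QKI7 cells on 13 of the 32 members tested, against vector cells, and rose on 0 (adjusted p under 0.05, limma with Benjamini-Hochberg adjustment over 5806 entries), whereas 4.60% of all entries tested fell and 3.60% rose. At an unadjusted limma p under 0.05, 20 members fell and 1 rose, beside 620 and 496 of the 5806 entries. The largest falls were in COX6A1 of complex IV and ATP5H of complex V, and no complex other than IV and V had more than 1 member that fell. The median log2 change on log2(TPM + 1) was -0.32 over the members and 0.01 over all entries, and 30 of 32 members lay below the median of all entries. In 27 members both QKI7 libraries lay below both vector libraries, a pattern seen in 22.4% of all entries, and in 2 members both lay above, against 30.4% of all entries. After rescaling to the mRNA scale, 10 of 45 members fell and 0 rose in limma, where 3.98% and 8.05% of 16677 entries did. At an unadjusted limma p under 0.05 there, 21 members fell and 1 rose, beside 1607 and 2804 of these entries. Median footprint changes on the mRNA scale were -0.35 for complex II, -0.27 for complex III, -0.45 for complex IV and -0.53 for complex V. In complex II 4 of 4 members and in complex III 9 of 10 had a change below 0 on that scale. Of these, 0 and 1 passed. The smallest p that an exact permutation test allows for 2 libraries against 2 is 0.333, so the calls rest on the spread limma shares across entries and groups.

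**Figure D1:**
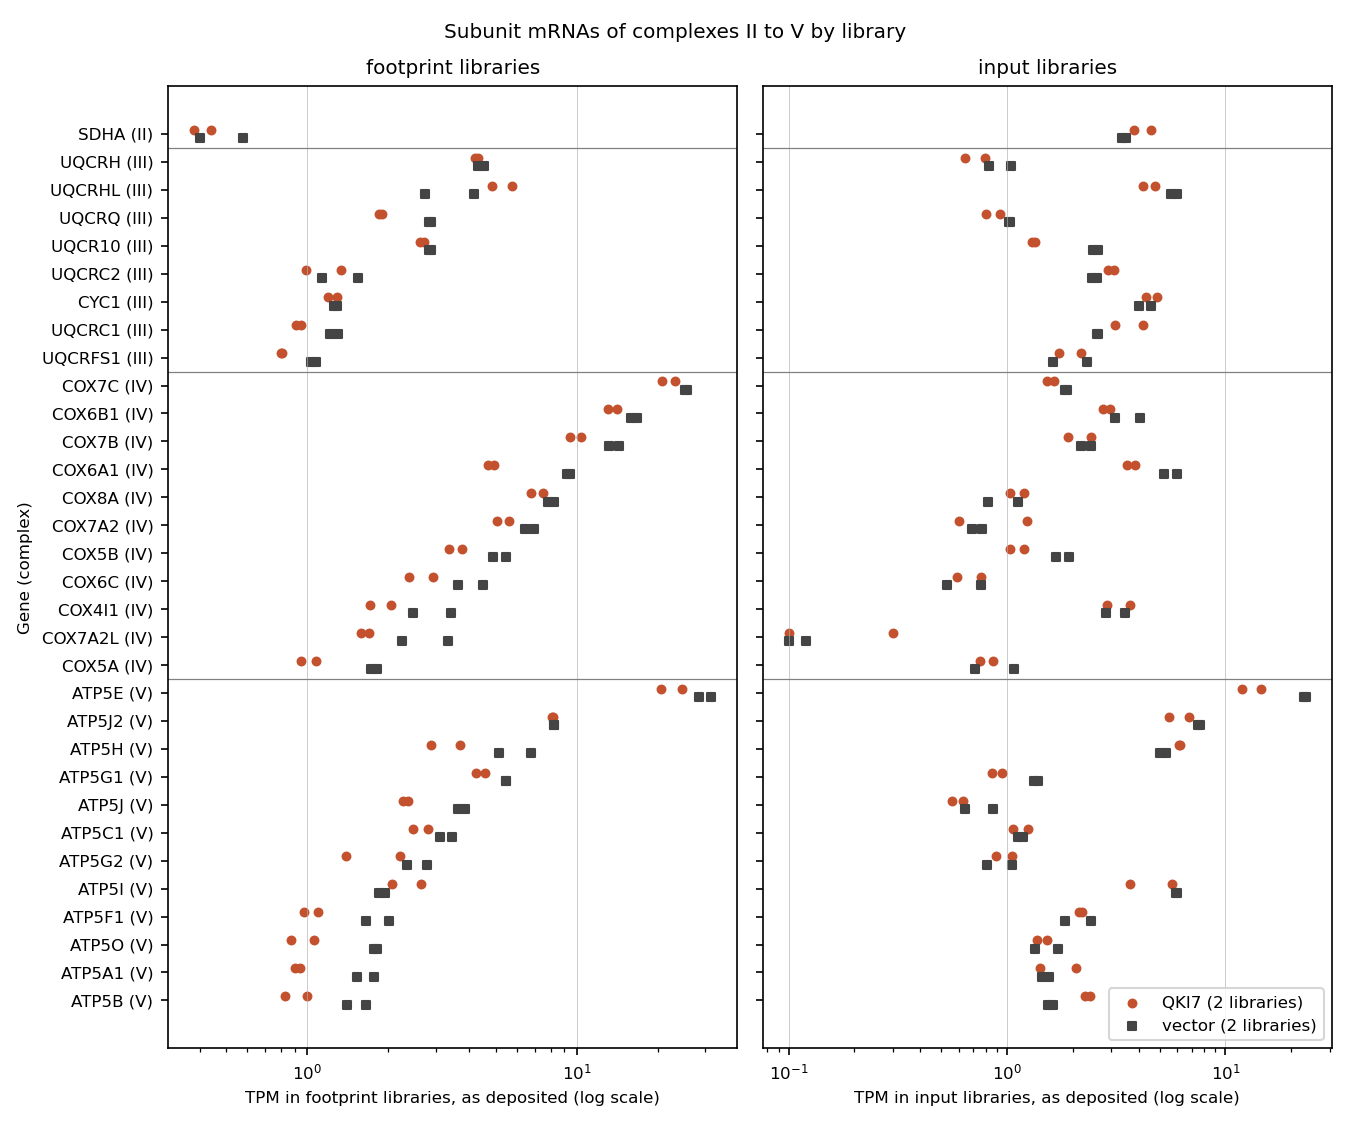
Each row is a tested member with its complex, and each point is the TPM of a library on a log axis, for footprints on the left and inputs on the right, with QKI7 as circles above and vector as squares below. In the footprints the QKI7 circles of COX6A1 (4.93 and 4.68 TPM) lie left of its vector squares (9.18 and 9.44 TPM), and the same holds for 27 of the 32 members.

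In complex IV, 5 of the 11 members tested fell in footprints: COX6A1, COX6C, COX5A, COX5B and COX7B, and the complex had a median change of -0.44. COX6C and COX7B did not pass on the mRNA scale (limma adjusted p = 0.165 and 0.128), which left 3 of 13. COX6A1, the widely expressed form of subunit 6A, had 4.93 and 4.68 TPM in QKI7 footprints and 9.18 and 9.44 TPM in vector footprints. The groups did not overlap, and the log2 change was -0.83 with an SE of 0.08 (limma adjusted p = 0.001). COX6C, a small membrane-spanning subunit, had 2.39 and 2.92 TPM in QKI7 footprints and 4.51 and 3.64 TPM in vector footprints (log2 change -0.47, limma adjusted p = 0.0437). COX5A and COX5B, both on the matrix side, fell by 0.46 and 0.44 on the log2 scale (limma adjusted p = 0.02 and 0.0154). COX7B, another small subunit, averaged 9.91 ± 0.615 TPM in QKI7 footprints and 13.8 ± 0.799 TPM in vector footprints (SD, n = 2 each), with a limma adjusted p of 0.0328. COX7A2L, a factor that joins complexes III and IV into supercomplexes, had 1.69 and 1.58 TPM in QKI7 footprints and 3.32 and 2.24 TPM in vector footprints, without overlap, and its change of -0.51 did not pass the test (limma adjusted p = 0.0554). COX4I1, the common form of the regulatory subunit that binds ATP, had a change of -0.45 that did not pass either (limma adjusted p = 0.114). COX7C had the highest footprint level of this complex, with 20.71 and 23.14 TPM in QKI7 cells and 25.59 and 25.14 TPM in vector cells. Its change of -0.20 did not pass the test (limma adjusted p = 0.178). The smallest change belonged to COX8A, at -0.16 with 6.75 and 7.5 TPM in QKI7 footprints and 7.83 and 8.26 TPM in vector footprints.

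In complex V, 7 of 12 members fell: ATP5H, ATP5J, ATP5O, ATP5F1, ATP5A1, ATP5B and ATP5G1, and the median change was -0.40. All 4 subunits of the peripheral stalk, the arm that holds the catalytic head still against the turning rotor, were among them. ATP5H (subunit d of the stalk) had 2.87 and 3.68 TPM in QKI7 footprints and 5.16 and 6.75 TPM in vector footprints, with a log2 change of -0.70 and an SE of 0.12 (limma adjusted p = 0.0122). ATP5J (subunit F6) had 2.37 and 2.27 TPM in QKI7 footprints and 3.84 and 3.63 TPM in vector footprints, with a change of -0.51 (limma adjusted p = 0.00423). ATP5O (OSCP, at the top of the stalk) had 0.87 and 1.06 TPM in QKI7 footprints and 1.81 and 1.77 TPM in vector footprints, with the same change of -0.51 (limma adjusted p = 0.00852). ATP5F1 (subunit b) had 1.1 and 0.97 TPM in QKI7 footprints and 1.66 and 2.02 TPM in vector footprints (log2 change -0.48, limma adjusted p = 0.0233). In each of the 4, both QKI7 libraries lay below both vector libraries.

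Of the catalytic F1 head, 2 of the 4 members tested fell in footprints. ATP5B, the beta subunit that carries the catalytic sites, had 1.0 and 0.83 TPM in QKI7 footprints and 1.4 and 1.66 TPM in vector footprints (log2 change -0.40, limma adjusted p = 0.0121). ATP5A1, the alpha subunit, averaged 0.92 ± 0.0283 TPM in QKI7 footprints and 1.65 ± 0.17 TPM in vector footprints (SD, n = 2 each; limma adjusted p = 0.0368). ATP5C1, the gamma subunit of the central shaft, changed by -0.24 and did not pass (limma adjusted p = 0.11). ATP5E, the epsilon subunit, had the highest footprint level of all members, with 20.54 and 24.69 TPM in QKI7 cells and 28.5 and 31.66 TPM in vector cells. Its change of -0.40 did not pass the test as deposited (limma adjusted p = 0.105). With median-of-ratios scaling ATP5E passed as lower in footprints (limma adjusted p = 0.0326). ATP5G1, which encodes subunit c of the rotor ring, fell by 0.26 (limma adjusted p = 0.0377), and ATP5G2, another gene for the same subunit, changed by -0.36 without passing (limma adjusted p = 0.189). The 2 tested small membrane subunits did not pass: ATP5I (subunit e) had 2.64 and 2.07 TPM in QKI7 footprints and 1.84 and 1.94 TPM in vector footprints, and ATP5J2 (subunit f) had 8.11 and 8.16 TPM against 8.26 and 8.27 TPM in vector footprints, the smallest change of the complex at -0.02. ATP5L, subunit g, fell on the mRNA scale (log2 change -0.88, limma adjusted p = 0.0359), while ATP5A1 and ATP5G1 no longer passed.

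In complex III, 1 of 8 members fell in footprints and the median change was -0.09. That member was UQCRQ, a small subunit also known as the ubiquinone-binding protein, with 1.9 and 1.84 TPM in QKI7 footprints and 2.89 and 2.83 TPM in vector footprints (log2 change -0.43, SE 0.06, limma adjusted p = 0.00359). The catalytic subunits were not called: CYC1, cytochrome c1, had 1.19 and 1.29 TPM in QKI7 footprints and 1.29 and 1.26 TPM in vector footprints, and UQCRFS1, the Rieske iron-sulfur protein, changed by -0.19 (limma adjusted p = 0.485). UQCRC1, a core protein of the matrix side, had 0.91 and 0.95 TPM in QKI7 footprints and 1.3 and 1.22 TPM in vector footprints, and its change of -0.23 did not pass (limma adjusted p = 0.262). UQCRHL, a near copy of the hinge protein gene UQCRH, had 5.75 and 4.84 TPM in QKI7 footprints and 2.73 and 4.17 TPM in vector footprints, the largest change of the complex, at 0.52 with a limma adjusted p of 0.0833. UQCRHL and UQCRH can share reads, so the split between them is uncertain. Their sum was 9.93 and 9.15 TPM in QKI7 footprints and 7.28 and 8.49 TPM in vector footprints. In complex II the tested member was SDHA, the catalytic flavoprotein, with 0.44 and 0.38 TPM in QKI7 footprints and 0.4 and 0.58 TPM in vector footprints (log2 change -0.08, limma adjusted p = 0.811).

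The footprint calls differed in how far they depended on a library. COX6A1, ATP5J and UQCRQ, 3 of the 13, passed in each of the 8 fits that left out a library. The number of members that fell was 5 without the QKI7 footprint library of replicate 1, and 7 without any other footprint library; without the vector footprint library of replicate 2, UQCRHL rose. With the 4 footprint libraries fitted alone, 1 member, COX6A1, passed.

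In inputs, UQCR10, ATP5E, COX6A1, COX5B, ATP5G1 and ATP5J2 had lower RNA in QKI7 cells and ATP5B and UQCRC1 higher RNA. These 6 of 32 members that fell and 2 that rose stood against 5.48% and 39.1% of all entries. The median of all entries shifted upwards by 0.15 on the log2 scale in QKI7 inputs, and the members' median was -0.02, which is -0.18 relative to that shift. A total of 27 of 32 members lay below the median of all entries. In 13 members both QKI7 inputs lay below both vector inputs (11.6% of all entries), and in 5 both lay above (57.8% of all entries). With the mRNA scale 4 of 45 members fell and 0 rose in limma, beside 0.546% and 0.0480% of all entries. At an unadjusted limma p under 0.05 there, 14 members fell and 0 rose, beside 652 and 419 of 16677 entries. With median-of-ratios scaling 12 of 32 fell and 0 rose, beside 17.5% and 18.2%. Unadjusted, 13 members fell and 2 rose with this scaling, beside 1341 and 1347 of 5765 entries.

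UQCR10, a small accessory subunit of complex III, had 1.35 and 1.3 TPM in QKI7 inputs and 2.61 and 2.47 TPM in vector inputs. The groups did not overlap, and the log2 change was -0.61 with an SE of 0.05 (limma adjusted p = 0.000955), while its footprints changed by -0.07 (limma adjusted p = 0.617). ATP5E had 14.52 and 11.87 TPM in QKI7 inputs and 23.4 and 22.81 TPM in vector inputs (log2 change -0.77, limma adjusted p = 0.00299). ATP5E shares near-identical sequence with the pseudogene ATP5EP2, which was left out of the members. The 2 together had 15.9 and 13.3 TPM in QKI7 inputs against 26.3 and 24.93 TPM in vector inputs, a ratio of 0.57. In footprints the 2 summed to 24.07 and 28.6 TPM in QKI7 cells and 36.89 and 40.85 TPM in vector cells, a ratio of 0.678. COX6A1 had 3.84 and 3.53 TPM in QKI7 inputs and 5.22 and 5.99 TPM in vector inputs (log2 change -0.49, limma adjusted p = 0.00298), and COX5B had 1.2 and 1.03 TPM against 1.67 and 1.92 TPM in vector inputs (log2 change -0.40, limma adjusted p = 0.00678). These 4 are the members whose promoters were shown, and both QKI7 inputs of each lay below both vector inputs.

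ATP5G1 fell by 0.31 in inputs (limma adjusted p = 0.00553) and ATP5J2 by 0.27 (limma adjusted p = 0.0473), both on the deposited scale. On the mRNA scale their changes were -0.76 and -0.50 and did not pass (limma adjusted p = 0.0613 and 0.0836). ATP5B had 2.28 and 2.41 TPM in QKI7 inputs and 1.63 and 1.54 TPM in vector inputs and rose by 0.37 (limma adjusted p = 0.00525). UQCRC1 had 4.18 and 3.11 TPM in QKI7 inputs and 2.62 and 2.58 TPM in vector inputs and rose by 0.36 (limma adjusted p = 0.0213). Neither passed on the mRNA scale or with median-of-ratios scaling. In the 8 fits that left out a library, 6 of the 8 RNA calls passed each time. ATP5J2 passed in the fit without QKI7 input replicate 1 and in no other of these, and UQCRC1 did not pass without QKI7 input replicate 1, vector input replicate 1 or vector input replicate 2. UQCRHL had 4.78 and 4.18 TPM in QKI7 inputs and 5.99 and 5.62 TPM in vector inputs, and ATP5I had 5.72 and 3.66 TPM in QKI7 inputs and 5.92 and 5.98 TPM in vector inputs, and neither change passed. COX6B1, a subunit that faces the intermembrane space, had 2.75 and 2.97 TPM in QKI7 inputs and 3.13 and 4.08 TPM in vector inputs, and its change of -0.25 did not pass (limma adjusted p = 0.0896). The smallest RNA changes were those of UQCRFS1 at -0.01, COX4I1 at 0.03 and ATP5C1 at 0.01. SDHA had 4.58 and 3.83 TPM in QKI7 inputs and 3.37 and 3.51 TPM in vector inputs (log2 change 0.23, limma adjusted p = 0.0641).

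COX6A1, COX5B and ATP5G1 fell both in footprints and in inputs. They are 3 of the 13 that fell in footprints and 3 of the 6 that fell in inputs. The other 10 that fell in footprints did not pass in inputs, and ATP5E, UQCR10 and ATP5J2 fell in inputs without passing in footprints. Across the 32 members, the RNA and footprint changes correlated at Pearson r = -0.118 and Spearman rho = -0.14, a description over genes that share the same libraries. Over 45 members on the mRNA scale the values were -0.0803 and -0.0891.

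**Figure D2:**
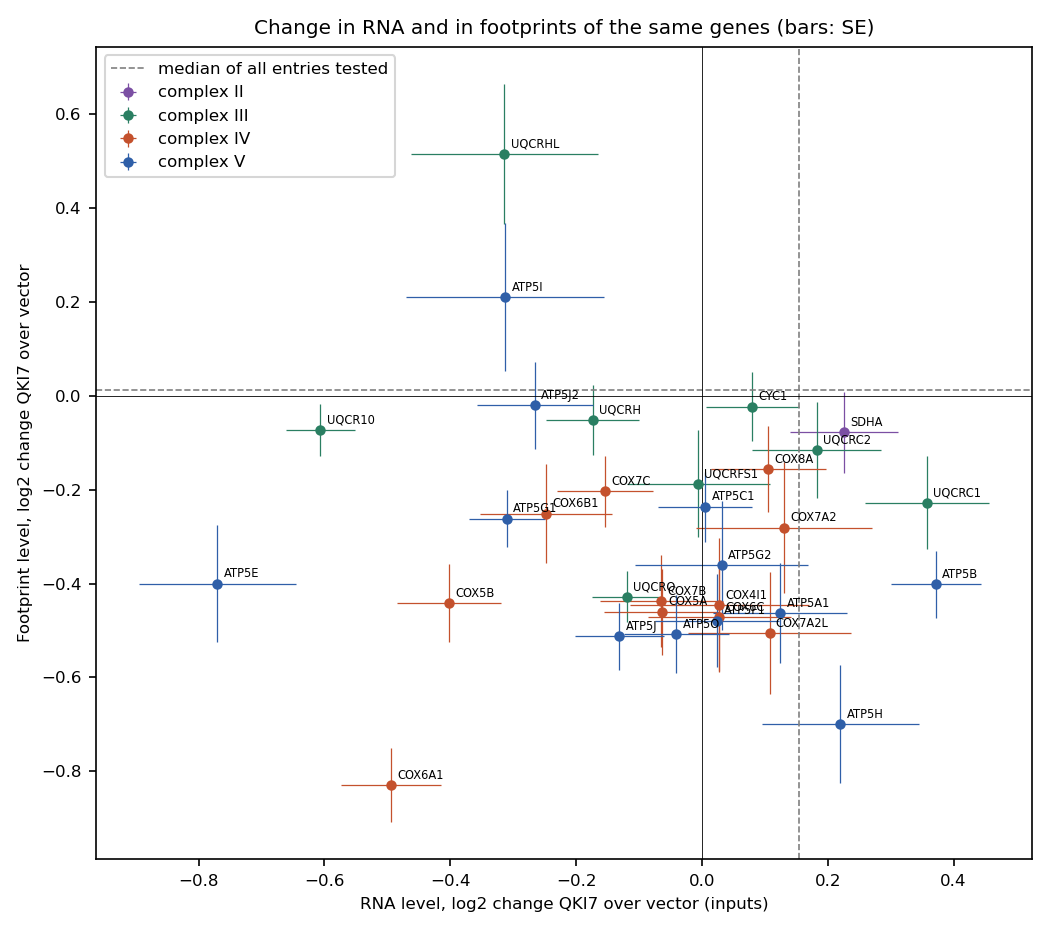
Each point is a tested member, coloured by complex, with its log2 change of QKI7 over vector in inputs on the horizontal axis and in footprints on the vertical axis, with bars for the SE, on the log2(TPM + 1) scale, and dashed lines at the median of all entries tested. COX6A1 stands lowest, at -0.83 in footprints and -0.49 in inputs, UQCR10 lies far to the left, at -0.61 in inputs but -0.07 in footprints, and ATP5H and ATP5B lie low in footprints but right of 0 in inputs.

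Translation efficiency is the footprint change with the RNA change taken off, tested as an interaction. In this test 9 of 32 members fell, 6 of them in complex V, and UQCR10 and UQCRHL of complex III rose. The share that fell, 28.1%, lay near that of all entries, 21.6%, and 3.57% of all entries rose. With the mRNA scale 0 of 45 members fell and 1 rose in limma, beside 0.282% and 1.18% of all entries. Whether members passed the test therefore depended on the scale. The members' median relative to all entries was -0.145 as deposited and -0.246 on the mRNA scale. At an unadjusted limma p under 0.05 on the mRNA scale, 6 members fell and 7 rose, beside 943 and 1774 of 16677 entries. The median of all entries was -0.16 as deposited and 0.08 on the mRNA scale. All 4 peripheral stalk subunits were among those that fell on the deposited scale: ATP5H by 0.92, ATP5F1 by 0.50, ATP5O by 0.47 and ATP5J by 0.38 (limma adjusted p = 0.0146, 0.0357, 0.0284 and 0.0317). In the catalytic head ATP5B fell by 0.77 (limma adjusted p = 0.00669) and ATP5A1 by 0.59 (limma adjusted p = 0.0294). COX7A2L fell by 0.61 (limma adjusted p = 0.0449), UQCRC1 by 0.59 (limma adjusted p = 0.0247) and UQCRQ by 0.31 (limma adjusted p = 0.0288). With the input and footprint library of the same construct and number blocked as a culture, ATP5J and UQCRQ did not pass (limma adjusted p = 0.052 and 0.054), and the other 9 calls did. UQCR10 rose by 0.53 (limma adjusted p = 0.00844), and on the mRNA scale by 1.03 (limma adjusted p = 0.0285). UQCRHL rose by 0.83 (limma adjusted p = 0.0289), with the uncertainty about its copy given above. COX6C and COX4I1, with changes of -0.50 and -0.47, did not pass (limma adjusted p = 0.0554 and 0.114). The smallest changes were those of CYC1 at -0.10, COX6B1, whose change rounded to zero, and ATP5G1 at 0.05. In the 8 fits that left out a library, ATP5B, ATP5H and UQCR10 passed each time and the other 8 of the 11 did not. The number that fell was as low as 2, without QKI7 footprint replicate 1 or vector footprint replicate 1; it was 3 without QKI7 footprint replicate 2, vector footprint replicate 2 or vector input replicate 1, and 5 without QKI7 input replicate 1.

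Summed over complexes, the share of mRNA-scale TPM showed the same libraries in another way. All 50 members together took 2.08% and 2.19% in QKI7 footprints and 2.69% and 2.71% in vector footprints, a ratio of the means of 0.791. In inputs they took 0.196% and 0.192% in QKI7 cells and 0.266% and 0.250% in vector cells, a ratio of 0.753. Neither pair of groups overlapped. For complex IV the ratio was 0.775 in footprints and 0.752 in inputs, and for complex V 0.767 and 0.697. For complex III it was 0.975 in footprints and 0.825 in inputs, and for complex II 0.712 and 1.01. The sums follow the members with the highest levels, ATP5E and COX7C among them. As summed deposited TPM, the members had 143.95 and 152.96 in QKI7 footprints and 189.61 and 191.65 in vector footprints, and 96.76 and 88.64 in QKI7 inputs and 106.91 and 108.1 in vector inputs.

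**Figure D3:**
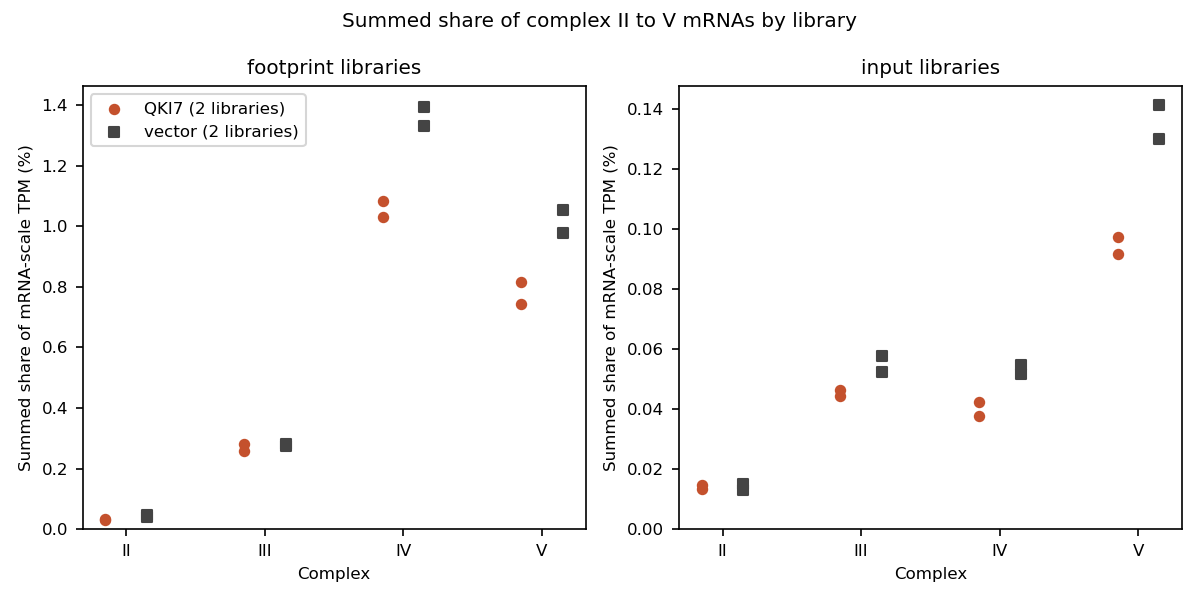
Points give, for each library, the summed share of mRNA-scale TPM in percent held by the members of each complex, in footprints on the left and inputs on the right, with QKI7 as circles and vector as squares; the vertical axes differ in range. Complexes IV and V are lower in both QKI7 libraries than in both vector libraries in footprints and in inputs. Complex II is lower in this way in footprints and overlaps in inputs. Complex III overlaps between QKI7 and vector in footprints and is lower in both QKI7 inputs.

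COX7C, COX8A and other small subunits of complex IV had more TPM in footprints than in inputs. SDHA and CYC1 had fewer as deposited, and for CYC1 this order turned on the mRNA scale. In QKI7 cells 18 of 32 members were higher in footprints than in inputs and 12 lower, where 7.42% of all entries were higher and 90.8% lower. In vector cells 17 were higher and 7 lower, against 7.70% and 89.9%. On either scale the filter at a mean of 1 TPM takes footprints and inputs together, so an entry can pass through the side where it is high. COX7A2L averaged 2.208 TPM in footprints and 0.155 TPM in inputs, and SDHA 0.45 and 3.823 TPM. The counts of members and of all entries in this comparison therefore depend in part on the filter. The members' median difference was 0.42 in QKI7 cells and 0.46 in vector cells, against -1.97 and -1.81 over all entries, and 0 of 32 members lay below the median of all entries in either. The mRNA scale gave 39 of 45 members higher and 2 lower in QKI7 cells (11.1% and 58.6% of all entries), and 41 higher and 1 lower in vector cells (11.7% and 60.3%). COX7A1, not among the 32, was the lowest on that scale, at -3.68 in QKI7 cells and -3.03 in vector cells. It had 0 TPM in every footprint library and lay below the median of all entries in both. Complex IV had the highest median, 1.14 in QKI7 cells and 1.75 in vector cells, and complex III had -0.25 and -0.56 as deposited. On the mRNA scale the complex IV medians were 4.67 and 4.74 and the complex III medians turned to 2.25 and 1.72, with 10 of 10 complex III members higher in both. Of the 12 members lower as deposited in QKI7 cells, 11 were higher on the mRNA scale, all but SDHA, and of the 7 in vector cells 6 were higher and SDHA did not pass. COX7C had 20.71 and 23.14 TPM in QKI7 footprints against 1.64 and 1.52 TPM in QKI7 inputs, a difference of 3.15, and 3.20 in vector cells, the highest of the members. COX8A followed with 1.94 in QKI7 cells and 2.20 in vector cells. The next were COX6B1 in QKI7 cells with 1.92 and COX7B in vector cells with 2.16. SDHA was the lowest of the 32 as deposited, at -1.88 in QKI7 cells and -1.58 in vector cells. CYC1 stood at -1.32 and -1.22 in the same order, UQCRC1 at -1.26 in QKI7 cells and ATP5I at -1.27 in vector cells. CYC1 turned to 0.88 in QKI7 cells and 0.81 in vector cells on the mRNA scale, UQCRC1 to 0.82 in QKI7 cells and ATP5I to 0.90 in vector cells, all called higher there. All values named as deposited passed the test (limma, Benjamini-Hochberg adjusted), with the largest adjusted p, 4.95e-05, for ATP5I in vector cells.

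**Figure D4:**
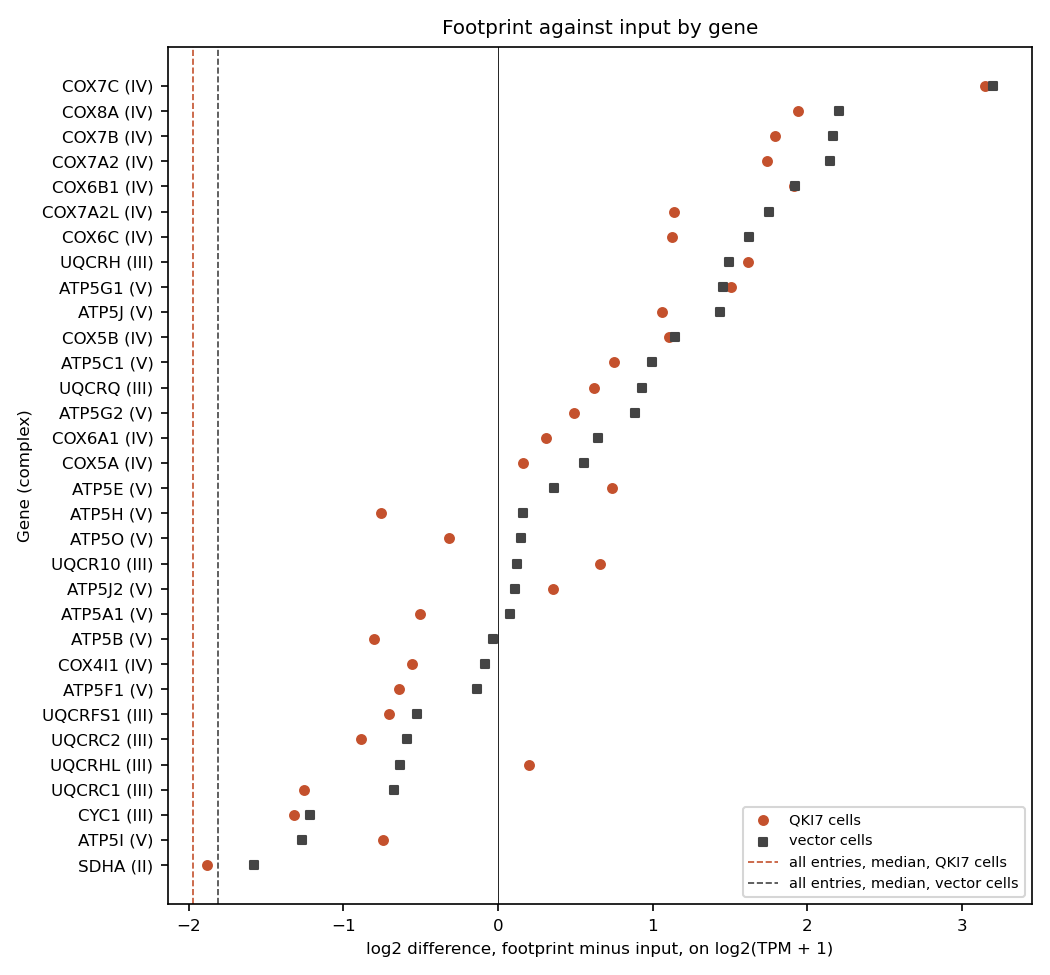
Rows are the tested members, sorted by their value in vector cells, and points give the log2 difference of footprint minus input on log2(TPM + 1) in QKI7 cells (circles) and vector cells (squares), with dashed lines at the medians of all entries. COX7C stands at the top with 3.15 in QKI7 cells and 3.20 in vector cells and SDHA at the bottom with -1.88 and -1.58, and no member lies below the median of all entries; these are values as deposited, and most members left of 0 turned on the mRNA scale.

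Other mitochondrial groups gave a frame for these counts. Of 27 complex I subunits tested, 5 fell and 0 rose in footprints, NDUFB9 by 0.88 (limma adjusted p = 0.0039) and NDUFA1 by 0.56 (limma adjusted p = 0.0451) among them, with a median of -0.13 relative to all entries, where the members had -0.33. In inputs 6 complex I subunits fell, NDUFB7 (log2 change -0.47) and NDUFS6 (-0.45) among them, and 1 rose, NDUFS1 (0.23); 0 of 38 passed on the mRNA scale (limma, 7 lower at an unadjusted p under 0.05). Of 35 mitochondrial ribosomal proteins, 3 fell in footprints, MRPL20 by 0.68 and MRPL51 by 0.55 among them, with a relative median of -0.13. Rescaled to the mRNA scale, the relative footprint medians were -0.44 for the members, -0.28 for complex I and -0.36 for mitochondrial ribosomal proteins. In footprints on that scale 10 of 45 members, 6 of 38 complex I subunits and 5 of 77 mitochondrial ribosomal proteins fell. In inputs 1 mitochondrial ribosomal protein, MRPS15, fell and 3 rose, and 0 of 77 passed on the mRNA scale (limma, 3 lower and 1 higher at an unadjusted p under 0.05). Of 78 cytosolic ribosomal proteins, 52 fell in footprints and 1 rose, with a relative median of -0.47, and 47 fell and 1 rose in inputs. Among 10 electron carriers and exchangers of nucleotides or phosphate, 5 fell in footprints. Among these SLC25A3, the phosphate carrier that supplies ATP synthase, had 0.59 and 0.76 TPM in QKI7 footprints and 1.44 and 1.4 TPM in vector footprints (log2 change -0.53, limma adjusted p = 0.0049). VDAC2, a channel of the outer membrane, fell by 0.40 (limma adjusted p = 0.027). Of 9 genes listed for complex IV assembly 0 changed in footprints (limma, 2 lower at an unadjusted p under 0.05). This list holds NDUFA4, which is also counted among the complex I subunits above and was not picked as a member by its symbol. In inputs COX17, the copper chaperone, fell by 0.42, while CMC2 rose by 0.46 and COA1 by 0.30, with no rise called under median-of-ratios scaling. None of these 3 passed on the mRNA scale, where 0 of 28 factors did (limma, 2 lower and 0 higher unadjusted). Of 9 citric acid cycle enzymes 0 changed in footprints (3 lower unadjusted), and MDH2 fell by 0.25 in inputs. With the mRNA scale MDH2 was called lower in footprints, 1 of 14 enzymes, and 0 of 14 passed in inputs (limma, 1 lower unadjusted). Of 4 regulators of mitochondrial biogenesis 0 changed in footprints or inputs (unadjusted, 1 lower and 1 higher in footprints), and in translation efficiency TFAM fell by 0.25 and YY1 rose by 0.30. With the mRNA scale 11 regulators were tested: in footprints 1 fell, TFAM, and 3 rose, PPARGC1A and ESRRA among them, and in translation efficiency 0 passed (limma, 1 lower and 4 higher unadjusted). TFAM also fell in footprints with median-of-ratios scaling. The differences between these groups and the members were not tested.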

How the data were processed

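The authors deposited TPM (transcript shares corrected for length) for each library in a table with 2 decimals. Per the submitters' processing notes, GRCh38, RSEM 1.2.31 and STAR were used, in roles not named there; the sources used here do not give strand handling. TPM keeps no depth, so no counting interval is given. Groups and replicate numbers come from the sample labels.

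Here log2(TPM + 1) was fitted with limma 3.58.1 in R 4.3.3 as 4 group means (eBayes with trend, 4 residual degrees of freedom) on the 5806 entries whose mean reached 1 TPM. P-values are two-sided, with Benjamini-Hochberg adjustment at 0.05; log2 changes on this scale understate the change of low values. For the mRNA scale, 2598 entries were removed and the other 24304 rescaled to 1000000 per library, of which 16677 were tested. The fit was tested on simulated data.

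Members and lists were chosen with earlier results of these data known. Members past the threshold without overlap are named, up to 12 a direction, with the 3 largest changes per complex, the smallest change, and the highest footprint level of a complex; from other lists, up to 2 per direction. The labels give input and footprint libraries of a construct the same numbers without saying that a number marks a shared culture. Deviations of same-numbered libraries correlated between -0.0881 and 0.125 over pairs of groups (0.125 for QKI7 footprints and inputs, 0.0083 for vector footprints and inputs), so pairing was not settled and no block was used in the reported fit. Alternatives covered the scaling, pseudocount, filter, variance trend, replicate block and libraries left out.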

Additional observations from a re-analysis of the deposited data

Results flagged for a closer look

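For 11 members the footprint change and the RNA change under QKI7 differed by the interaction test of translation efficiency (limma, adjusted over all 5806 entries). This is why they are listed. The share of members tested that fell, 28.1%, lay near the 21.6% of all entries, and 6.25% of members rose against 3.57% of all entries. In complex V the log2 difference was -0.919 for ATP5H, -0.773 for ATP5B, -0.588 for ATP5A1, -0.503 for ATP5F1, -0.467 for ATP5O and -0.381 for ATP5J. In complexes III and IV it was 0.83 for UQCRHL, 0.533 for UQCR10, -0.586 for UQCRC1, -0.308 for UQCRQ and -0.614 for COX7A2L. On the mRNA scale UQCR10 passed and the other 10 did not. COX7A2L rests on inputs of 0.3 and 0.1 TPM in QKI7 cells and 0.1 and 0.12 TPM in vector cells, near the rounding of the table.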

How the results depend on the processing

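For QKI7 against vector, no called member changed direction under an alternative tried, but counts of calls moved. For footprint against input, directions turned on the mRNA scale: CYC1 to 0.884 in QKI7 cells and 0.806 in vector cells, UQCRC1 to 0.818 in QKI7 cells, ATP5I to 0.904 in vector cells and the complex III median to 2.249 and 1.717; with median-of-ratios scaling added, these were 0.861, 0.811, 0.795, 0.909, 2.227 and 1.722. The causes were not tested. In footprints, 13 members fell; 8 fell with a filter at 0.2 TPM, 3 with no filter, 1 with only the libraries compared, and 5 to 10 with a library left out, where 0 to 1 rose. In inputs, where 6 fell and 2 rose, 12 fell with median-of-ratios scaling and 3 on the mRNA scale with median-of-ratios scaling, an alternative chosen after seeing the data; 0 rose under either, on the mRNA scale, with quantile normalization or with a pseudocount of 0.1, 1 with no filter or with only the libraries compared, and 1 to 3 with a library left out. For translation efficiency, 0 fell on the mRNA scale with or without median-of-ratios scaling, 5 with median-of-ratios scaling alone, 2 with quantile normalization, 2 with a pseudocount of 0.1, 1 with no filter and 2 to 9 with a library left out; 1 rose on both mRNA scales, with the pseudocount of 0.1 and with no filter, and 1 to 2 with a library left out. For footprint against input in QKI7 cells, 2 were lower and 39 higher on both mRNA scales; in vector cells, 1 was lower and 41 higher on both, and 12 and 13 were lower with a filter at 0.2 TPM and with no filter. With the replicate block, 14 members fell in footprints, 5 fell and 2 rose in inputs, and 10 fell and 2 rose in translation efficiency. With the same-numbered libraries of a construct blocked as a culture (culture replicate block), 9 fell and 3 rose in translation efficiency. Calls over all entries moved with the setting as well. Those that fell in footprints numbered 267 of 5806 as deposited, 195 of 12267 with a filter at 0.2 TPM and 112 of 23707 with no filter. With only the libraries compared 18 of 5806 fell, and with the replicate block 237. Median-of-ratios scaling had 17 members and 483 of 5765 entries lower in footprints. In inputs, 318 of 5806 entries fell and 2269 rose as deposited, and 907 fell and 1090 rose with quantile normalization. A pseudocount of 0.1 gave 81 and 294, no filter 524 and 4629 of 23707, and only the libraries compared 140 and 773. In translation efficiency 1254 fell and 207 rose as deposited, and 629 and 459 with quantile normalization. Median-of-ratios scaling gave 618 and 508 of 5765, the pseudocount 113 and 104, and no filter 669 and 150 of 23707. Depth is unknown, so low footprints near the rounding of the table limit precision.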
